A study of Mus musculus with 80 samples.

Results

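The pyruvate dehydrogenase kinases and phosphatases are the enzymes that switch the pyruvate dehydrogenase complex off and on. Their genes were taken from the count table by symbol, as Pdk1, Pdk2, Pdk3 and Pdk4 for the kinases and Pdp1 and Pdp2 for the catalytic subunits of the phosphatases. All 6 were found among the 20105 genes of the table, and all 6 passed the filter on low counts in each of the comparisons below. The study isolated nuclei from livers of female mice by INTACT, in which a tag on the nuclear envelope of a chosen cell type lets its nuclei be pulled out of a tissue. One line, HEP-INTACT, carried the tag in hepatocytes, and the other, MAC-INTACT, carried it in macrophages. Fasted mice had food withdrawn at ZT12, the start of the dark and active phase, and livers were taken 3, 8, 16 and 24 h later, at ZT15, ZT20, ZT4 and ZT12. Mice fed ad libitum were killed at the same times. Each length of fasting thus goes with its own time of day, so a change of a fasting effect between times cannot be assigned to either. The groups were therefore fasted hepatocyte nuclei, fed hepatocyte nuclei, fasted macrophage nuclei and fed macrophage nuclei at each of the 4 times, with 4 libraries in each, which makes 64 tagged libraries. In addition, 16 libraries held whole-liver nuclei of these lines, not purified by the tag and pooled from 4 mice each, 1 per line, feeding state and time. The headers of the counts call the pools of both lines input, and the sample titles only those of the macrophage line. Neither says whether the pools hold the same mice as the tagged libraries, so the pools may not be independent of them. The sources used here do not give the animals' age, the promoter that drives the tag, or whether each tagged library came from a separate animal, so the p-values below measure the spread between libraries.

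The pyruvate dehydrogenase complex turns pyruvate from glycolysis into acetyl-CoA inside mitochondria, a step that mammals cannot reverse, so carbon that passes it is lost for glucose synthesis. The kinases phosphorylate its E1 alpha subunit and stop it, and the phosphatases remove the phosphate and restart it. In the liver, Pdk2 and Pdk4 are known as the main kinases, and Pdk4 is known for its induction by fasting, glucocorticoids and fatty acids through PPAR-alpha and FoxO1, while insulin lowers it. Pdp2 is the phosphatase isoform known to be lowered by starvation in rat heart and kidney, and Pdp1 is the calcium-stimulated isoform that is abundant in muscle. RNA in nuclei was measured here, and neither the proteins nor the phosphorylation of the complex.

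On mm10, the count table placed Pdk1 on the plus strand of chromosome 2 at 71873224 to 71903858, and Pdk2 on the minus strand of chromosome 11 at 95026258 to 95041371. Pdk3 lay on the minus strand of chromosome X at 93764616 to 93832095, and Pdk4 on the minus strand of chromosome 6 at 5483351 to 5496278. Pdp1 lay on the minus strand of chromosome 4 at 11958185 to 11966450, and Pdp2 on the plus strand of chromosome 8 at 104591468 to 104596849. The listed lengths span whole gene bodies and ranged from 5382 bases for Pdp2 to 67480 bases for Pdk3. Exons made up 2.96% of the listed span of Pdk3 and 65.0% of that of Pdp2. In the GENCODE annotation, an antisense gene, Gm11513, overlapped Pdk2, and no other gene overlapped the other 5. Whether the counting used the strand is not stated in the labels, so reads of Pdk2 and of Gm11513 cannot be told apart.

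The promoters of Pdk4, Pdk2 and Pdp2 are shown because these genes were all higher after 3 h of fasting in hepatocytes. They are given as the 250 bases before the RefSeq start site on GRCm38.p6. The stretches are chr6:5496279-5496528 on the minus strand for Pdk4, chr11:95041372-95041621 on the minus strand for Pdk2 and chr8:104591222-104591471 on the plus strand for Pdp2, written 5′ to 3′ along each gene. Capitals mark matches to the motifs searched.
Pdk4: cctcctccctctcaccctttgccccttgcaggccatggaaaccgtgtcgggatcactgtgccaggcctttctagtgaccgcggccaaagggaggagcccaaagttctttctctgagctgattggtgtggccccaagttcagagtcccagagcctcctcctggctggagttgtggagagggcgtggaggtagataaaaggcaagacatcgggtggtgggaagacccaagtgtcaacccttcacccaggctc
Pdk2: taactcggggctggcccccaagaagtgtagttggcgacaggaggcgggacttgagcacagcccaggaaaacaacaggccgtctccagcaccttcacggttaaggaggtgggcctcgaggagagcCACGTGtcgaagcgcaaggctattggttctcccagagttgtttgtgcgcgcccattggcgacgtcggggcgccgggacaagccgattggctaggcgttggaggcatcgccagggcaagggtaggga
Pdp2: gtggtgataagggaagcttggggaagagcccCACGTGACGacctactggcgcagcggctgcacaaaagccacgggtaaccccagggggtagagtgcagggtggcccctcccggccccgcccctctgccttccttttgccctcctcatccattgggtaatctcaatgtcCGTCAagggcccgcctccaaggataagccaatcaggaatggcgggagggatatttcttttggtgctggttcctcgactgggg
The search covered the 300 bases that run to base 50 after the start site, on both strands. It took the FoxO motif TGTTTAC, the cAMP response element TGACGTCA and its core TGACG, the PPAR and RXR repeat AGGTCANAGGTCA and its single copy AGGTCA, the estrogen-related receptor motif TCAAGGTCA, the glucocorticoid receptor core TGTTCT, the E-box CACGTG and the hypoxia motif ACGTG. The hypoxia motif lies inside the E-box, and in Pdp2 the E-box at bases 219 to 214 before the start shares letters with TGACG. The Pdk4 window held none of these letters. The Pdk2 and Pdp2 windows each held an E-box, which occurs in 7.15% of the 32851 RefSeq windows of that length, and TGACG, which occurs in 20.8%. In Pdk2 the TGACG match stands at bases 43 to 47 after the start, outside the stretch printed here. Another RefSeq window of Pdk2, with its start site at base 95040875 and not at the listed base 95041371, held none of the motifs. Of the other motifs, FoxO was in 3.65% of all windows, the full cAMP element in 1.79%, the PPAR and RXR repeat in 0.0396%, its single copy in 16.3%, the estrogen-related receptor motif in 0.423%, the glucocorticoid core in 19.0% and the hypoxia motif in 19.6%. The Pdp2 start site in RefSeq, base 104591472, differed slightly from the listed one, base 104591468. A match is only a run of letters, and no binding was measured.

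Total counts per library ran from 12597786 to 30089561 in hepatocyte nuclei, from 14968505 to 44694933 in macrophage nuclei, from 13246494 to 24004503 in the whole-liver pools of the hepatocyte line and from 16523636 to 35514304 in those of the macrophage line. Levels are given as CPM (counts scaled to a common library size), using library totals adjusted by TMM, and as CPM per kb of listed length where genes are compared. Hepatocyte nuclei held little macrophage RNA: 10 Kupffer cell and macrophage markers summed to 30.2 to 78.4 CPM there, against 195.9 to 278.3 CPM in the pools of that line. Macrophage nuclei held 3632 to 6990 CPM of these markers, but they also held hepatocyte RNA. The 10 hepatocyte markers, Alb and Cps1 among them, summed to 4107 to 20460 CPM in macrophage nuclei and to 9004 to 29680 CPM in hepatocyte nuclei. In bulk libraries, fewer cells of a type and less RNA per cell cannot be told apart.

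In fed hepatocyte nuclei, the transcripts highest per unit length were Pdp2 and Pdk2. Over the 16 fed libraries, Pdp2 averaged 3.60 ± 0.72 CPM per kb (SD) and Pdk2 averaged 3.21 ± 0.62, and their ranges overlapped, at 2.52 to 5.58 and 2.46 to 4.51. Pdk4 followed at 0.920 ± 0.507 CPM per kb and Pdk1 at 0.564 ± 0.215, again with overlapping ranges. Pdp1 stood at 0.0462 ± 0.0180 CPM per kb and Pdk3 at 0.00596 ± 0.00320. Any order per kb rests on reads being counted over the whole listed span, introns included, which is not stated. In plain CPM the order differed, with fed means of 48.5 for Pdk2, 19.4 for Pdp2, 17.3 for Pdk1 and 11.9 for Pdk4. Pdk3 and Pdp1 had 0.402 and 0.382 CPM. In the 16 fasted hepatocyte libraries, Pdk4 had the highest mean, 6.94 ± 8.28 CPM per kb, and the widest spread, with a lowest value of 0.898 and a highest of 31.1. Fasted Pdp2 averaged 5.25 ± 2.43 CPM per kb, Pdk2 3.64 ± 1.15, Pdk1 0.338 ± 0.088, Pdp1 0.0656 ± 0.0392 and Pdk3 0.0102 ± 0.0059. The ranges of Pdk4, Pdp2 and Pdk2 overlapped in fasted nuclei. Pdk3 and Pdp1 were near the limit of counting in hepatocytes, with 2 to 48 and 1 to 28 reads per library.

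Pdk4 had the largest fasting effects of the 6 genes in hepatocytes, at 3, 8 and 24 h. After 3 h, its levels in the 4 fasted libraries were 195, 59.2, 41.6 and 27.0 CPM, against 19.5, 8.91, 11.8 and 9.26 CPM in the fed ones. After 8 h, they were 205, 138, 167 and 401 CPM in fasted nuclei and 10.3, 22.4, 16.5 and 14.8 CPM in fed nuclei. At both times every fasted library stood above every fed one, and the ratio of the means was 6.54 at 3 h and 14.3 at 8 h. After 16 h, the fasted libraries had 17.5, 55.9, 33.1 and 32.4 CPM, against 11.2, 9.85, 11.8 and 25.8 CPM in fed libraries, so the groups overlapped by the lowest fasted and the highest fed library. After 24 h, the values were 16.6, 13.0, 20.8 and 11.6 CPM in fasted nuclei and 3.61, 8.58, 3.16 and 3.07 CPM in fed nuclei, with no overlap. The fasted mean was highest at 8 h, and by 24 h the fasted libraries lay in the range of the fed libraries of the other times.

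In edgeR's quasi-likelihood test with Benjamini-Hochberg adjustment over the 12942 genes tested, Pdk4 was higher in fasted hepatocytes by 2.76 ± 0.50 (log2 difference ± SE) at 3 h, with an adjusted p of 8.32e-05. It was higher by 3.89 ± 0.52 at 8 h (adjusted p = 1.77e-06) and by 1.81 ± 0.52 at 24 h (adjusted p = 0.0127). At 16 h the difference was 1.25 ± 0.48 with an adjusted p of 0.0702, which missed the threshold of 0.05. Fasted library 1 at 3 h weighed on the size: without it the difference was 1.88. At 16 h, the difference was 1.48 with an adjusted p of 0.0387 without fasted library 1, and 1.69 with an adjusted p of 0.0317 without fed library 4. The fasting effect on Pdk4 differed between the times (F test of the interaction, adjusted p = 0.0171).

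Markers of several cell types also stood apart between fasted and fed hepatocyte nuclei. The 7 cholangiocyte markers, among them Spp1 and Sox9, summed to less in fasted libraries at all 4 times, with no overlap. Their sums were 94.9 to 138 CPM in fasted against 275.4 to 417 CPM in fed libraries at 3 h, 65.6 to 97.4 against 370.5 to 476 at 8 h, 218 to 336 against 418 to 650.3 at 16 h, and 118 to 195 against 330.0 to 584 at 24 h. Purification did not deplete this list, which averaged 294 CPM in hepatocyte nuclei and 252 CPM in the pools of that line. Its sum therefore cannot be read as a share of cholangiocytes, and the source of its reads was not tested. The 10 hepatocyte markers summed to more in fasted libraries at 3 h, at 18820 to 27380 CPM against 13180 to 16780 CPM in fed ones, and the groups overlapped at 8, 16 and 24 h. The Kupffer cell markers were higher at 8 h, at 54.9 to 78.4 CPM in fasted against 39.0 to 45.4 CPM in fed libraries. The 8 stellate cell markers were lower at 16 h, at 34.2 to 56.4 CPM in fasted against 87.9 to 141 CPM in fed libraries. The 6 neutrophil and monocyte markers, under 1 CPM in sum in each hepatocyte library, were lower at 8 h, at 0.0846 to 0.171 CPM in fasted against 0.179 to 0.588 CPM in fed libraries. The sinusoidal endothelium and lymphocyte markers overlapped between the groups at all 4 times. The part of these markers in the fasting effects measured in hepatocyte nuclei was not tested.

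**Figure D1:**
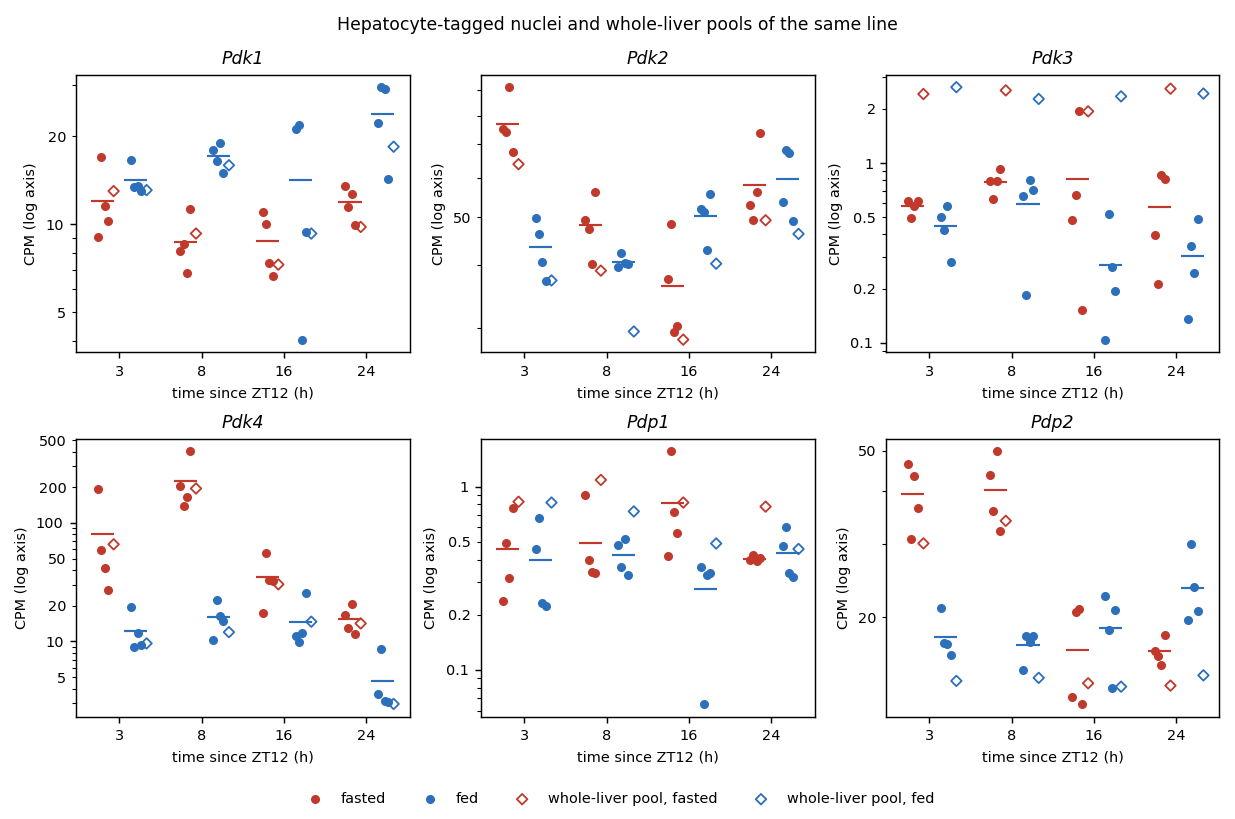
Level of each gene in hepatocyte nuclei, in CPM on a log axis, against the time since ZT12 in hours. Filled points are single libraries, 4 per group, with a line at their mean, and open diamonds are the whole-liver pools of the same line; Pdk4 in fasted libraries reaches 401 CPM at 8 h, and the Pdk3 pools lie above nearly all tagged libraries.

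Pdk2, the most widely expressed kinase, moved early and then in the opposite direction. After 3 h, the fasted libraries had 75.2, 74.0, 91.2 and 67.7 CPM, against 49.8, 46.3, 40.7 and 37.2 CPM in the fed ones, with no overlap. Pdk2 rose by 0.88 ± 0.15 (adjusted p = 2.23e-05). After 8 h, values of 49.4, 47.4, 40.3 and 56.1 CPM in fasted nuclei overlapped those of 39.7, 42.4, 40.5 and 40.3 CPM in fed nuclei, and the difference of 0.30 ± 0.15 missed the threshold (adjusted p = 0.103). After 16 h, the fasted libraries had 37.6, 48.5, 29.4 and 30.3 CPM and the fed ones 51.9, 51.2, 43.0 and 55.6 CPM. Pdk2 was then lower in fasted nuclei by -0.45 ± 0.15 (adjusted p = 0.0294), although fasted library 2 lay within the fed range. That call was lost without fasted library 3 (-0.37, adjusted p = 0.123) or fasted library 4 (-0.38, adjusted p = 0.0984), and without fed library 1, 2 or 4 (adjusted p = 0.0636, 0.0664 and 0.0946). It was also lost in a fit of only the 8 libraries of that time (adjusted p = 0.139). After 24 h, fasted nuclei held 49.3 to 73.9 CPM and fed nuclei 49.0 to 68.1 CPM, a difference of -0.02 ± 0.14 (adjusted p = 0.949). The change of the Pdk2 effect with time passed the test (adjusted p = 0.000146).

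Pdk1, a kinase known as a target of hypoxia signalling, was lower in fasted hepatocytes at 8 and 24 h. After 8 h, its levels were 8.12, 8.55, 6.82 and 11.3 CPM in fasted nuclei and 18, 16.4, 19.0 and 15 CPM in fed nuclei, which did not overlap. After 24 h, they were 13.6, 11.5, 12.7 and 9.99 CPM in fasted nuclei and 22.3, 29.4, 29.0 and 14.3 CPM in fed nuclei, again without overlap. Pdk1 fell by 0.93 ± 0.31 at 8 h (adjusted p = 0.0196) and by 0.97 ± 0.31 at 24 h (adjusted p = 0.022). At 3 h the difference was -0.18 ± 0.31 (adjusted p = 0.682) and at 16 h it was -0.67 ± 0.31 (adjusted p = 0.137). At 16 h the 4 fed libraries were spread from 4.04 to 21.8 CPM, against 6.64 to 11 CPM in the fasted ones, and without fed library 3 the difference was -0.97 with an adjusted p of 0.00764. The call at 8 h was lost without fasted library 3 (-0.83, adjusted p = 0.0616). The call at 24 h was lost without fasted library 2 or 4, or fed library 2 or 3, with differences from -0.95 to -0.86 and adjusted p from 0.0508 to 0.0695. A change of the Pdk1 effect between times was not found (adjusted p = 0.374).

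Pdk3 was the least abundant kinase in hepatocytes. At 16 h it was called higher in fasted nuclei, by 1.68 ± 0.57 (adjusted p = 0.0375), from 0.480, 0.666, 1.95 and 0.152 CPM in fasted libraries and 0.104, 0.522, 0.265 and 0.194 CPM in fed ones. The groups overlapped, and 48 of the reads came from fasted library 3, against 3 to 12 in the other fasted libraries. Without that library the difference was 0.71 with an adjusted p of 0.473, and the call was also lost without fed library 1, 3 or 4 (adjusted p = 0.128, 0.0605 and 0.101) and with the replicate number as a block (adjusted p = 0.057). At 3, 8 and 24 h the differences were 0.42 ± 0.54, 0.47 ± 0.52 and 0.90 ± 0.59, none past the threshold. The Kupffer cell markers at 16 h overlapped between the groups, at 40.8 to 50.5 CPM in fasted and 43.3 to 51.4 CPM in fed hepatocyte nuclei, whereas the stellate cell and cholangiocyte markers, given above, were lower in fasted nuclei at that time with no overlap.

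Among the phosphatases, Pdp2 rose with fasting at the same early times as Pdk4. After 3 h, its levels were 46.6, 30.8, 43.6 and 36.5 CPM in fasted hepatocyte nuclei and 21.1, 17.4, 17.3 and 16.2 CPM in fed ones. After 8 h, they were 43.8, 35.8, 49.9 and 32.2 CPM in fasted nuclei and 15, 18.1, 17.5 and 18.1 CPM in fed nuclei. No fasted library overlapped a fed one at either time. Pdp2 was higher by 1.19 ± 0.18 at 3 h (adjusted p = 6.91e-06) and by 1.30 ± 0.18 at 8 h (adjusted p = 2.12e-06). After 16 h, fasted nuclei had 12.9, 20.6, 21.0 and 12.4 CPM and fed nuclei 22.4, 18.7, 13.6 and 20.9 CPM, a difference of -0.16 ± 0.18 (adjusted p = 0.597). After 24 h, fasted nuclei had 16.6, 16.2, 15.4 and 18.2 CPM and fed nuclei 19.8, 30.0, 23.6 and 20.8 CPM, with no overlap. Pdp2 was then lower by -0.49 ± 0.18 (adjusted p = 0.0472), a call close to the threshold that was lost without any 1 of the 4 fasted libraries or without fed library 2 or 3 (differences from -0.54 to -0.36, adjusted p from 0.0502 to 0.182). With no filter on low counts its adjusted p was 0.057. The change of the Pdp2 effect with time passed the test (adjusted p = 4.13e-06).

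Pdp1 was scarce in hepatocytes and was called at 1 time. After 16 h, its levels were 0.420, 1.55, 0.730 and 0.557 CPM in fasted nuclei, from 7 to 28 reads, and 0.364, 0.0653, 0.331 and 0.340 CPM in fed nuclei, from 1 to 7 reads. The groups did not overlap, and the difference was 1.53 ± 0.46 (adjusted p = 0.0199). It was lost without fasted library 2 (1.05, adjusted p = 0.111) or fed library 2 (adjusted p = 0.0793). At 3, 8 and 24 h the differences were 0.14 ± 0.47, 0.38 ± 0.46 and -0.04 ± 0.48.

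In counts, 3 of the 6 genes were called at 3 h in hepatocytes, where 39.9% of all tested genes were called (19.5% higher and 20.4% lower), and all 3 were higher. At 8 h, 3 of 6 were called against 38.7% of all genes (18.0% higher and 20.7% lower), with Pdk4 and Pdp2 higher and Pdk1 lower. The counts called in either direction at 3 and 8 h lay near the share of all genes. At 16 h, 3 of 6 were called against 18.1% of all genes (9.55% higher and 8.55% lower), with Pdk3 and Pdp1 higher and Pdk2 lower. At 24 h, 3 of 6 were called against 24.0% of all genes (11.6% higher and 12.4% lower), with Pdk4 higher and Pdk1 and Pdp2 lower. Effects that changed with time were found for 3 of 6, against 32.8% of all genes. The median log2 difference of the 6 genes was 0.65, 0.42, 0.55 and -0.03 at 3, 8, 16 and 24 h, and that of all tested genes was -0.03, -0.02, 0.01 and -0.01.

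**Figure D2:**
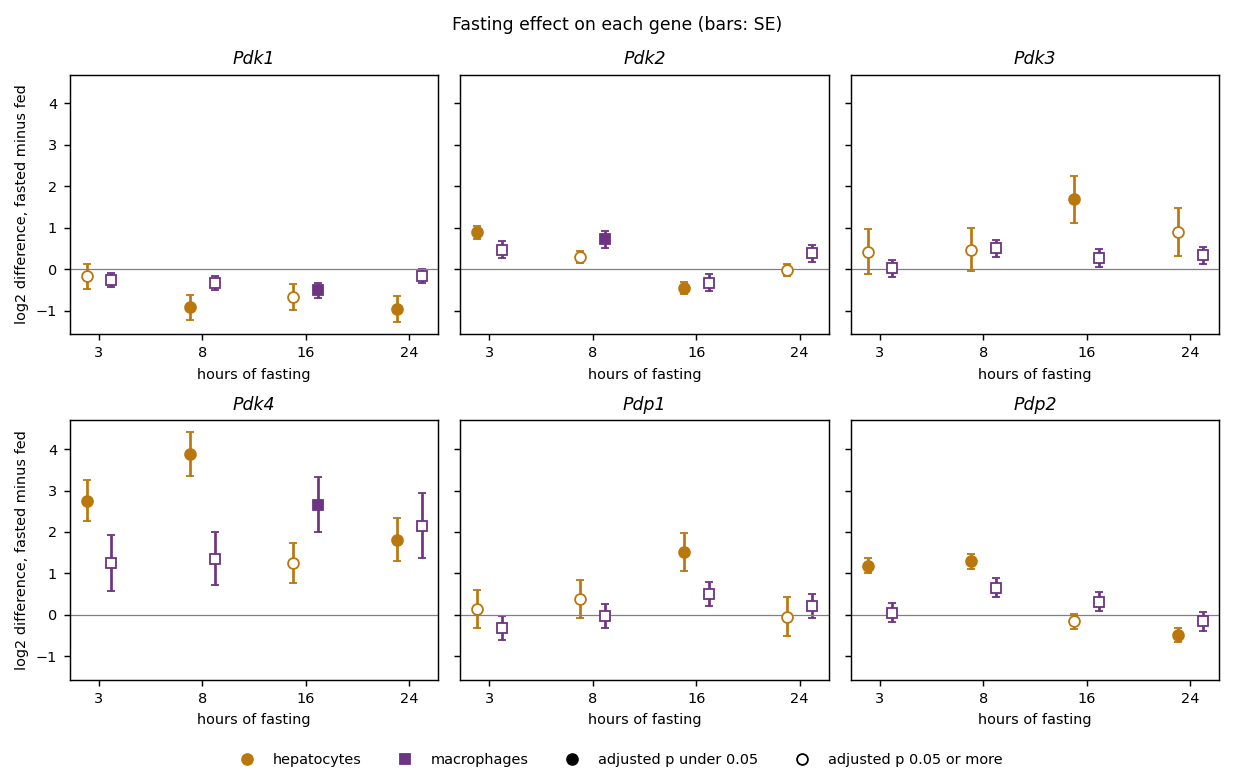
Log2 difference of fasted minus fed nuclei for each gene against the hours of fasting, with SE bars, hepatocytes as circles and macrophages as squares. Filled symbols have an adjusted p under 0.05; the highest value is Pdk4 in hepatocytes at 8 h, 3.89, and Pdk1 lies below 0 at all times in both.

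Time of day was also tested without fasting, and the number of the 6 genes called lay near the share of all genes. In fed hepatocytes, the level differed between the 4 times for Pdk4 (adjusted p = 0.04) and Pdk2 (adjusted p = 0.012), 2 of 6 against 30.1% of all genes. Fed Pdk4 averaged 12.4 CPM at ZT15, 16.0 at ZT20, 14.7 at ZT4 and 4.60 at ZT12, so it was lowest at the end of the light phase. The Pdk4 call was lost with no filter on low counts (adjusted p = 0.0696) and with the replicate number as a block (adjusted p = 0.0545). Fed Pdk2 averaged 43.5, 40.7, 50.4 and 59.5 CPM at the same times and was highest at ZT12. Fed Pdk1 averaged 14.1, 17.1, 14.1 and 23.8 CPM and fed Pdp2 18, 17.2, 18.9 and 23.5 CPM, neither past the threshold (adjusted p = 0.107 and 0.119). Pdk3 and Pdp1 missed it as well (adjusted p = 0.353 and 0.688). Within fasted hepatocytes, time passed the test for Pdk2, Pdk4 and Pdp2 (adjusted p = 7.13e-06, 2.66e-06 and 1.53e-07), 3 of 6 against 44.9% of all genes. In fasted nuclei of either cell type, hours without food and time of day go together and cannot be told apart.

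Per unit length, Pdk4 made up more of the kinase signal in fasted than in fed hepatocytes. Its share of the summed CPM per kb of the 4 kinases in fasted hepatocytes averaged 45.8% ± 20.0 (SD, n = 4), 81.9% ± 5.2, 48.4% ± 10.9 and 22.2% ± 5.6 at 3, 8, 16 and 24 h. In fed hepatocytes it averaged 21.7% ± 4.9, 27.1% ± 5.8, 22.5% ± 8.0 and 6.82% ± 2.79. Pdk2 held most of the rest: 50.2%, 16.6%, 45.8% and 70.4% in fasted nuclei, against 67.3%, 60.3%, 68.2% and 78.1% in fed nuclei. The lowest fasted share of Pdk4 at 8 h was 75.7%, above every fed library. The 4 kinases together summed to 21.1 ± 9.6 CPM per kb in fasted nuclei at 8 h, against 4.50 ± 0.45 in fed nuclei. Pdp2 held at least 95.3% of the phosphatase signal in each hepatocyte library. Both Pdk4 and Pdp2 rose at 3 and 8 h. The ratio of the kinase sum to the phosphatase sum was 1.57 ± 0.60, 3.00 ± 1.91, 1.72 ± 0.37 and 1.74 ± 0.20 in fasted hepatocytes and 1.26 ± 0.07, 1.39 ± 0.09, 1.41 ± 0.16 and 1.15 ± 0.12 in fed ones. These shares and ratios compare transcripts and are given without a test. They also rest on the listed lengths. Without length, the Pdk4 share at 8 h was 78.0% in fasted and 21.2% in fed hepatocytes.

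**Figure D3:**
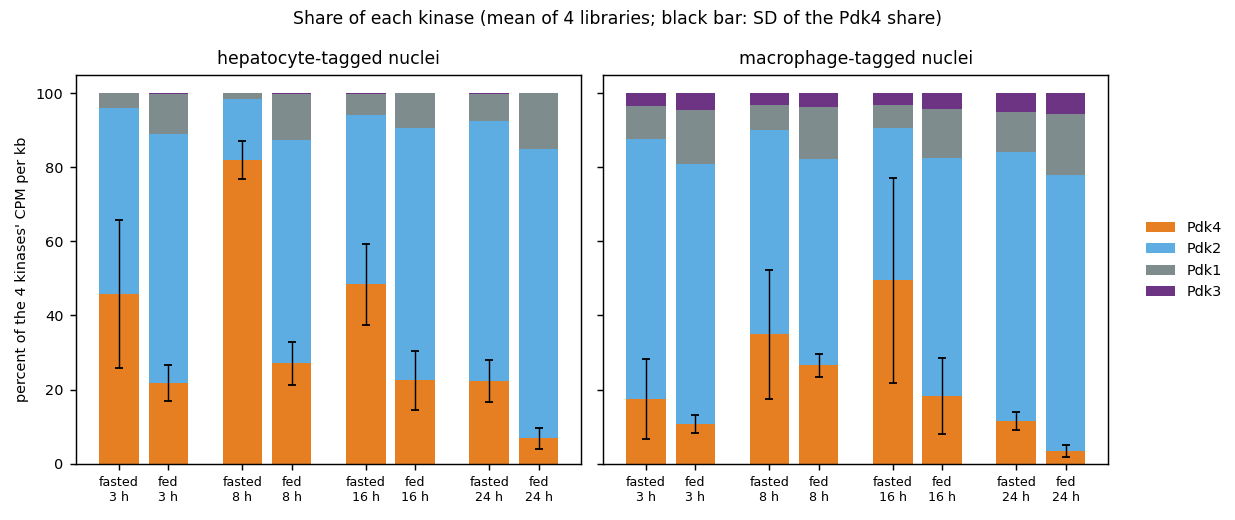
Share of each kinase in the summed CPM per kb of the 4 kinases, in percent, as stacked means of 4 libraries per group, with the SD of the Pdk4 share as a black bar. In hepatocytes Pdk4 holds 81.9% after 8 h of fasting and 27.1% in fed nuclei at that time; Pdk3 is visible in macrophage nuclei, at 3.15% to 5.65%.

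In macrophage nuclei, Pdk3 and Pdp1 were higher than in hepatocytes and the other genes lower. Fed macrophage nuclei had 1.66 ± 0.24 CPM per kb of Pdp2 and 1.47 ± 0.34 of Pdk2 (SD, n = 16), with overlapping ranges. Pdk4 followed at 0.352 ± 0.286 CPM per kb and Pdk1 at 0.320 ± 0.045, then Pdp1 at 0.108 ± 0.026 and Pdk3 at 0.0963 ± 0.0199, each pair with overlapping ranges. In plain CPM the order differed here too, with means of 22.3 for Pdk2, 9.80 for Pdk1 and 8.94 for Pdp2. Pdk3 had 6.50, Pdk4 4.56 and Pdp1 0.888 CPM. Set directly against fed macrophages, fed hepatocytes had less Pdk3, by -4.13 ± 0.20 (adjusted p = 3.36e-26), and less Pdp1, by -1.27 ± 0.19 (adjusted p = 4.46e-08). They had more Pdk4, by 1.62 ± 0.32 (adjusted p = 8.7e-06), more Pdk2, by 1.06 ± 0.09, more Pdp2, by 1.06 ± 0.10, and more Pdk1, by 0.73 ± 0.13. All 6 genes were thus called, as were 82.7% of all genes in this comparison (42.7% higher in hepatocytes and 40.0% lower). The hepatocyte RNA in macrophage nuclei enters these differences, and its part was not tested. Cell type also goes with mouse line and with the run of library numbers in the sample titles, and these cannot be told apart.

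The genes were also compared between tagged nuclei and the whole-liver pools of each line. Mean CPM in tagged macrophage nuclei stood at 470% of the pools of that line for Pdk3 and at 161% for Pdp1, while the Kupffer cell markers stood at 505% to 2100%. Pdk4 stood at 40.5%, within the 36.0% to 48.0% of the hepatocyte markers, whereas Pdk2, Pdp2 and Pdk1 stood above that range, at 53.7%, 55.8% and 72.2%. In the hepatocyte line, tagged nuclei held Pdk3 at 22.7% and Pdp1 at 61.5% of the pools, and the other 4 genes at 115% to 128%, where the hepatocyte markers stood at 95.1% to 133%. Of the 10 Kupffer markers in the hepatocyte line, 9 stood at 16.6% to 27.6% and Cd68 at 89.3%. Sinusoidal endothelium markers were also lower in that line's tagged nuclei, with a mean sum of 169 CPM against 998 CPM in its pools. Stellate cell markers had 63.6 against 223 CPM. In the macrophage line, these sums were 531 against 850 CPM and 72 against 176 CPM. Which cell types hold each gene's RNA was not tested. Pdk3 was lower in purified hepatocytes than in whole liver by -2.23 ± 0.23 (adjusted p = 1.46e-10) and higher in purified macrophages by 2.22 ± 0.15 (adjusted p = 1.7e-15). Pdp1 was lower in purified hepatocytes by -0.74 ± 0.22 (adjusted p = 0.00504) and higher in purified macrophages by 0.71 ± 0.18 (adjusted p = 0.000695). In purified hepatocytes, Pdk2 and Pdp2 were higher by 0.29 ± 0.07 and 0.34 ± 0.09, and Pdk1 and Pdk4 were not called, which makes 4 of 6 against 50.3% of all genes (28.8% higher and 21.5% lower). In purified macrophages, Pdk4 was lower by -1.28 ± 0.31, Pdk2 by -0.89 ± 0.10, Pdp2 by -0.84 ± 0.11 and Pdk1 by -0.44 ± 0.09, which with Pdk3 and Pdp1 makes 6 of 6 against 76.8% of all genes (36.2% higher and 40.7% lower).

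**Figure D4:**
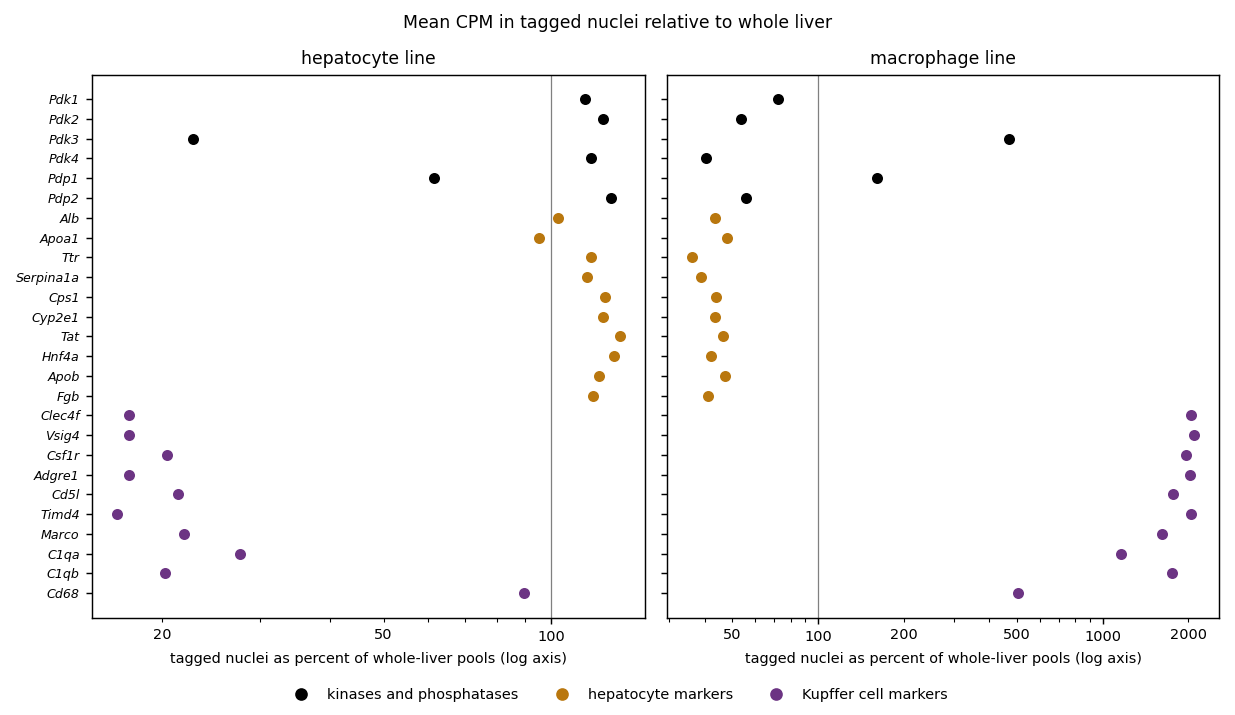
Mean CPM of each gene in tagged nuclei as a percentage of its mean in the whole-liver pools of the same line, on log axes that differ between the panels, with hepatocyte and Kupffer cell markers for scale. In the macrophage line Pdk4, at 40.5%, lies among the hepatocyte markers and Pdk3, at 470%, just under the lowest Kupffer marker, Cd68.

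In macrophage nuclei, mean Pdk4 was higher in fasted than in fed libraries at all 4 times, and the difference passed the test at 16 h. After 16 h, its levels were 23.3, 106, 4.72 and 15.1 CPM in fasted nuclei and 2.56, 11.3, 4.05 and 5.44 CPM in fed nuclei. The difference was 2.66 ± 0.67 (adjusted p = 0.00878), but the groups overlapped and fasted library 2 stood far above the others. Without that library the difference was 1.34, with an adjusted p of 0.118, and in a fit of only the 8 libraries of that time the adjusted p was 0.0885. The whole-liver pool of the macrophage line at that time also stood high, at 97.8 CPM fasted against 15.1 CPM fed, but that pool may hold the same mice as the tagged libraries. After 24 h, the values were 3.97, 4.42, 4.20 and 2.81 CPM in fasted nuclei and 0.416, 0.583, 1.49 and 0.987 CPM in fed nuclei. These did not overlap, and the difference of 2.15 ± 0.78 had an adjusted p of 0.0728 in edgeR and of 0.02 in DESeq2. At 3 h the fasted libraries had 5.44, 2.67, 14.6 and 5.02 CPM and the fed ones 2.63, 3.56, 3.23 and 1.92 CPM, a difference of 1.26 ± 0.68 (adjusted p = 0.209). At 8 h they had 6.22, 11.4, 42.1 and 27.9 CPM in fasted nuclei and 8.11, 6.56, 7.88 and 12.2 CPM in fed nuclei, a difference of 1.35 ± 0.64 (adjusted p = 0.172).

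The hepatocyte markers in macrophage nuclei also stood higher in fasted libraries. Their sum ranged from 9753 to 20460 CPM in fasted and from 5285 to 8696 CPM in fed libraries at 3 h, from 8409 to 9973 and from 4107 to 6003 at 8 h, from 6415 to 8059 and from 4567 to 6140 at 16 h, and from 9256 to 13200 and from 5293 to 10710 at 24 h. The sums did not overlap at 3, 8 and 16 h. Their part in the fasting effects measured in macrophage nuclei was not tested. Pdk4 ranged from 4.72 to 106 CPM over the 4 fasted libraries at 16 h, and the marker sums of the same libraries from 6415 to 8059 CPM. In fasted hepatocyte nuclei at 16 h, Pdk4 itself varied between libraries, from 17.5 to 55.9 CPM. The source of the Pdk4 RNA in macrophage nuclei was not tested. Over all 32 macrophage libraries, no marker of the hepatocyte list was near 0 on average, the lowest being Apoa1 with a mean of 84.3 CPM. Other lists stood apart in macrophage nuclei too. The cholangiocyte markers summed to 44.1 to 76.5 CPM in fasted and 124.5 to 171 CPM in fed libraries at 8 h. Over all libraries, that list averaged 123 CPM in macrophage nuclei and 285 CPM in the pools of that line. The 8 lymphocyte markers summed to 1.5 to 2.13 CPM in fasted and 2.20 to 3.00 CPM in fed libraries at 8 h, and to 2.94 to 7.59 CPM in fasted and 2.13 to 2.77 CPM in fed libraries at 16 h. The neutrophil and monocyte markers summed to 2.57 to 3.86 CPM in fasted and 4.64 to 6.46 CPM in fed libraries at 16 h, and to 1.66 to 2.54 CPM in fasted and 3.19 to 5.87 CPM in fed libraries at 24 h. The part of these lists in the results was not tested either.

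The other genes changed less in macrophage nuclei. Pdk2 was higher after 8 h, by 0.72 ± 0.20 (adjusted p = 0.02), from 34.6, 32.2, 46.2 and 25.9 CPM in fasted nuclei and 16.9, 17.6, 22.8 and 27.3 CPM in fed nuclei, which overlapped in 1 library of each group. That call was lost without fasted library 3 (0.53, adjusted p = 0.139) or without fed library 1 or 2 (0.60 and 0.64, adjusted p = 0.0871 and 0.0794), and with only the 8 libraries of that time (adjusted p = 0.0586). At 3 h, Pdk2 had 28.1 to 32.6 CPM in fasted and 19.7 to 25.7 CPM in fed macrophage nuclei, without overlap, and a difference of 0.47 ± 0.20 (adjusted p = 0.12). Pdk1 was lower after 16 h, by -0.52 ± 0.17 (adjusted p = 0.043), from 7.37, 8.91, 4.76 and 6.06 CPM in fasted nuclei and 8.90, 9.77, 12.7 and 8.05 CPM in fed nuclei. It lost the call without fasted library 1, 3 or 4 or fed library 1, 2 or 3 (differences from -0.58 to -0.36, adjusted p from 0.054 to 0.175), and with no filter on low counts (adjusted p = 0.0501) or only the 8 libraries of that time (adjusted p = 0.16). Pdp2 at 8 h had 7.29, 8.93, 21.4 and 15.6 CPM in fasted nuclei and 7.89, 7.01, 8.22 and 10.9 CPM in fed nuclei, a difference of 0.65 ± 0.23 (adjusted p = 0.0561), which passed without fasted library 1 (0.84, adjusted p = 0.00779), fasted library 2 (0.79, adjusted p = 0.0244) or fed library 4 (0.80, adjusted p = 0.0377), and in DESeq2 (adjusted p = 0.0406). Pdk3, the kinase highest in these nuclei relative to liver, had 4.50 to 11.8 CPM in fasted and 5.02 to 9.20 CPM in fed libraries, and its differences of 0.02 ± 0.21, 0.50 ± 0.21, 0.27 ± 0.21 and 0.33 ± 0.21 at 3, 8, 16 and 24 h all missed the threshold. Pdp1 had 0.372 to 1.40 CPM in fasted and 0.370 to 1.18 CPM in fed libraries and was called at no time, although its groups at 16 h did not overlap (0.50 ± 0.28, adjusted p = 0.245).

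**Figure D5:**
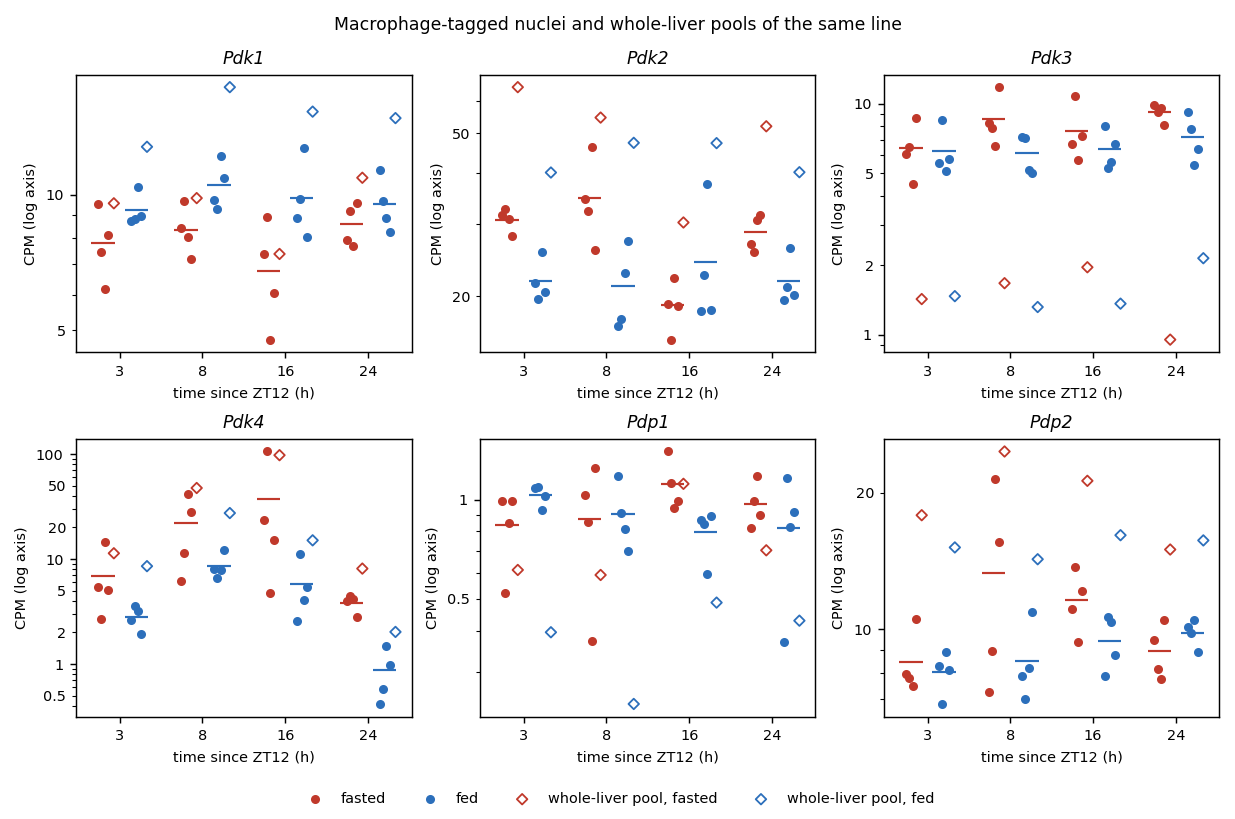
Level of each gene in macrophage nuclei, in CPM on a log axis, against the time since ZT12 in hours, with symbols for single libraries, group means and whole-liver pools of the macrophage line. For Pdk4 at 16 h, 1 fasted library stands at 106 CPM and the fasted pool at 97.8 CPM; for Pdk3 every tagged library lies above every pool.

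By count, none of the 6 genes was called in macrophages at 3 h, where edgeR called 12.4% of all genes (7.70% higher and 4.68% lower), and none at 24 h, where it called 11.7% (5.31% higher and 6.35% lower). At an unadjusted p under 0.05 the counts were 1, Pdk2, at 3 h and 1, Pdk4, at 24 h, and DESeq2 called 0 at 3 h and 1, Pdk4, at 24 h. At 8 h, 1 of 6 was called against 12.8% of all genes (7.44% higher and 5.40% lower), and at 16 h, 2 of 6 against 13.7% (7.72% higher and 5.99% lower). No gene of the 6 had an effect that changed with time (4.65% of all genes did), although edgeR gave 1, Pdk2, an unadjusted p under 0.05 and DESeq2 called that gene (adjusted p = 0.0291), and the adjusted p for Pdk4 was 0.568. In fed macrophage nuclei, 1 of 6 varied with the time of day, against 12.8% of all genes: Pdk4 averaged 2.83, 8.68, 5.84 and 0.868 CPM at ZT15, ZT20, ZT4 and ZT12 (adjusted p = 0.018). In fasted macrophage nuclei, 2 of 6 varied with time, against 38.1% of all genes: Pdk4 averaged 6.94, 21.9, 37.3 and 3.85 CPM at 3, 8, 16 and 24 h (adjusted p = 0.00131) and Pdk2 30.8, 34.8, 19.0 and 28.7 CPM (adjusted p = 0.0118).

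The fasting effect was set against itself between the cell types, as the effect in hepatocytes minus that in macrophages. Here too, cell type cannot be told apart from mouse line and library series. At 3 h, Pdp2 responded more in hepatocytes, by 1.18 ± 0.28 (adjusted p = 0.0045), the 1 gene of 6 called, against 10.6% of all genes (6.20% with a higher effect in hepatocytes and 4.40% with a lower one). Its effect was 1.19 ± 0.18 in hepatocytes and 0.05 ± 0.23 in macrophage nuclei. At 8 h, Pdk4 responded more in hepatocytes, by 2.64 ± 0.81 (adjusted p = 0.0335), again 1 of 6, against 7.62% of all genes (3.86% higher and 3.76% lower). That call was fragile: leaving out any 1 of 8 of the 16 libraries of that time ended it (hepatocyte fasted library 4, hepatocyte fed libraries 1, 3 and 4, macrophage fasted libraries 1 and 2, macrophage fed libraries 1 and 4), with differences from 2.22 to 2.68 and adjusted p from 0.0507 to 0.0912. With no filter on low counts the adjusted p was 0.0509. The Pdp2 difference at 8 h, 0.73 ± 0.28 (adjusted p = 0.0981), was 1.05 with an adjusted p of 0.0101 without macrophage fasted library 3. At 3 h the Pdk4 difference was 1.56 ± 0.84 (adjusted p = 0.239). At 16 and 24 h it was -1.34 ± 0.81 (adjusted p = 0.647) and -0.35 ± 0.95 (adjusted p = 0.892), and at 16 h it was 0.006 without macrophage fasted library 2. No gene of the 6 was called, against 0.535% of all genes at 16 h (0.407% higher and 0.128% lower) and 4.05% at 24 h (2.10% higher and 1.95% lower). At those times edgeR gave an unadjusted p under 0.05 to 2 of the 6 genes at 16 h and 1 at 24 h, and DESeq2 called 0 at either time.

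The 16 whole-liver pools, which may share mice with the tagged libraries, were tested without purification, with line and time as terms. Each difference is thus a mean over the times and lines and hides changes with time. In hepatocyte nuclei, for example, the Pdp2 difference was 1.30 at 8 h and -0.49 at 24 h. Pdk4 was higher in fasted pools by 2.19 ± 0.41 (adjusted p = 0.00241). In the hepatocyte line the pools had 66.1, 196, 30.4 and 14.2 CPM fasted and 9.63, 12, 14.7 and 2.97 CPM fed at 3, 8, 16 and 24 h. In the macrophage line they had 11.4, 47.6, 97.8 and 8.12 CPM fasted and 8.56, 27.5, 15.1 and 2.02 CPM fed. Fasted exceeded fed in each of the 8 pairs, but the fasted maximum fell at 8 h in the hepatocyte line and at 16 h in the macrophage line, with 1 pool at each point and so no replicate. Pdk1 was lower in fasted pools by -0.62 ± 0.12 (adjusted p = 0.00228), with 7.28 to 13.0 CPM fasted and 9.30 to 18.4 CPM fed. Pdp1 and Pdp2 were higher by 0.70 ± 0.23 (adjusted p = 0.0365) and 0.47 ± 0.16 (adjusted p = 0.0436), so 4 of 6 were called against 27.0% of all genes (12.1% higher and 14.9% lower). Leaving out 1 pool ended the Pdp1 call in 8 of 16 cases (adjusted p from 0.0618 to 0.0858) and the Pdp2 call in 9 of 16 (adjusted p from 0.0619 to 0.108), and the Pdp2 call was also lost with no filter (adjusted p = 0.0526). Pdk2, at 0.16 ± 0.15, and Pdk3, at -0.04 ± 0.16, were not called.

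The substrate complex and its neighbours were followed as lists. Of 8 genes for the complex and for pyruvate entry into mitochondria, 4 rose in hepatocytes at 3 h, where 19.5% of all genes rose and 20.4% fell. They were Pdha1, the E1 alpha subunit that the kinases phosphorylate (0.80 ± 0.14, adjusted p = 4.05e-05), Pdhb, the E1 beta subunit (0.38 ± 0.16, adjusted p = 0.0493), Mpc2, a subunit of the mitochondrial pyruvate carrier (0.84 ± 0.21, adjusted p = 0.00259), and Pdpr, the regulatory subunit of the phosphatase (1.12 ± 0.11, adjusted p = 1.69e-08). At 8 h, 5 of 8 rose, where 18.0% of all genes rose and 20.7% fell: Pdha1, Pdhb, Mpc2 and Pdpr, by 0.53, 0.42, 0.78 and 1.11, and Pdhx, the subunit that anchors E3, at 0.53 ± 0.12. At 16 h, Pdhx was higher by 0.66 ± 0.12 and Dlat, the E2 subunit, lower by -0.44 ± 0.12. At 24 h, Pdhx and Pdpr were higher by 0.42 ± 0.12 and 0.39 ± 0.11 and Dlat lower by -0.41 ± 0.12. Of all genes, 9.55% rose and 8.55% fell at 16 h, and 11.6% and 12.4% at 24 h, so a single call of 8 is near such a share. The list's median was 0.37, 0.47, 0.09 and 0.08 at the 4 times. In macrophage nuclei, Pdpr rose by 0.56 ± 0.09 at 3 h, 0.67 ± 0.09 at 8 h and 0.40 ± 0.09 at 16 h, Dld, the E3 subunit, by 0.58 ± 0.19 at 3 h, and Pdha1 by 0.35 ± 0.10 at 8 h. Of all genes in macrophage nuclei, 7.70% rose at 3 h, 7.44% at 8 h and 7.72% at 16 h, and 4.68%, 5.40% and 5.99% fell. None of the 8 was called at 24 h in macrophage nuclei by edgeR, with 1, Pdpr, at an unadjusted p under 0.05. At that time 11.7% of all genes were called, so 0 of 8 is near that share. Among the related pair that acts on the branched-chain keto acid dehydrogenase, the phosphatase Ppm1k rose in hepatocytes by 1.52 ± 0.30 at 3 h (adjusted p = 0.000227) and 0.76 ± 0.30 at 8 h (adjusted p = 0.0448), and in macrophage nuclei by 1.2 ± 0.20 at 3 h (adjusted p = 0.000353). The kinase of that pair, Bckdk, was not called at any time in either, with differences in hepatocytes of 0.01 ± 0.13, -0.25 ± 0.13, -0.01 ± 0.12 and -0.04 ± 0.13.

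Of 12 genes for other fates of pyruvate and acetyl-CoA, 2 rose and 4 fell in hepatocytes at 3 h, 5 rose and 3 fell at 8 h, 4 rose and 3 fell at 16 h, and 2 rose and 3 fell at 24 h. Of all genes tested, 19.5% rose and 20.4% fell at 3 h, 18.0% and 20.7% at 8 h, 9.55% and 8.55% at 16 h, and 11.6% and 12.4% at 24 h, so the 2 that rose at 3 h and at 24 h and the 3 that fell at 8 h lay near the share of all genes. The genes that fell at all 4 times were Pklr, the liver pyruvate kinase (-2.76 ± 0.43 at 3 h and -1.42 ± 0.41 at 24 h), Acly, which makes cytosolic acetyl-CoA from citrate (-3.87 ± 0.30 and -0.85 ± 0.27), and Slc25a1, the mitochondrial citrate exporter (-0.53 ± 0.15 and -0.68 ± 0.15). Ldha, a lactate dehydrogenase subunit, rose at all 4 times (1.32 ± 0.16 at 3 h and 0.57 ± 0.16 at 24 h), and Gpt2, an alanine aminotransferase, rose at 3, 8 and 16 h (1.52 ± 0.26, 0.89 ± 0.26 and 0.99 ± 0.26). Pkm rose at 8, 16 and 24 h (0.61 ± 0.19, 0.61 ± 0.20 and 0.95 ± 0.20), Slc16a1, a monocarboxylate transporter, at 8 and 16 h (0.65 ± 0.14 and 0.94 ± 0.14), and Ldhb at 8 h (2.26 ± 0.61). Me1 fell at 3 h (-0.96 ± 0.30). In macrophage nuclei, 0 rose and 4 fell at 3 h, 0 and 1 at 8 h, 2 and 2 at 16 h, and 0 and 2 at 24 h. Of all genes tested there, 7.70% rose and 4.68% fell at 3 h, 7.44% and 5.40% at 8 h, 7.72% and 5.99% at 16 h, and 5.31% and 6.35% at 24 h, and a single call of 12 is near such a share. Pklr fell there at 3, 16 and 24 h, by 1.51, 1.76 and 1.73, and Acly at 3, 8 and 16 h, by 1.55, 0.80 and 1.44. Slc25a1 and Pkm fell in macrophage nuclei at 3 h (-0.87 ± 0.27 and -0.54 ± 0.18) and Me1 at 24 h (-1.0 ± 0.33), while Ldha and Slc16a1 rose at 16 h (1.15 ± 0.23 and 1.28 ± 0.27). The list's median in hepatocytes was -0.01, 0.45, 0.03 and 0.03 at the 4 times.

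Of 12 known regulators of the kinase genes, 5 rose and 1 fell in hepatocytes at 3 h, against 19.5% and 20.4% of all genes. Ppara rose by 1.18 ± 0.20 (adjusted p = 2.84e-05), Foxo1 by 1.69 ± 0.28 (adjusted p = 2.04e-05), Foxo3 by 0.75 ± 0.17, and the coactivators Ppargc1a and Ppargc1b by 2.41 ± 0.55 and 1.47 ± 0.26, while the glucocorticoid receptor gene Nr3c1 fell by 0.50 ± 0.14. At 8 h, 5 rose and 3 fell, against 18.0% and 20.7% of all genes: Ppara, Foxo1, Ppargc1a, Ppargc1b and Hif1a were higher, by 0.73, 0.69, 1.70, 1.49 and 0.37, and Ppard, Rxra and Nr3c1 lower, by -1.21, -0.84 and -0.52. At 16 h, 0 rose and 2 fell, against 9.55% and 8.55% of all genes, and those that fell were Foxo3 (-0.87 ± 0.17) and Nr3c1 (-0.55 ± 0.14). At 24 h, 1 rose and 3 fell, against 11.6% and 12.4% of all genes: Ppargc1a was higher (2.37 ± 0.55), and Ppara (-0.57 ± 0.20), Foxo3 (-0.79 ± 0.17) and Nr3c1 (-0.71 ± 0.15) were lower. The counts that fell at 3 and 8 h and rose at 16 and 24 h lay near or below the share of all genes. In macrophage nuclei, 3 rose and 1 fell at 3 h and at 8 h, 1 rose and 0 fell at 16 h, and 1 rose and 1 fell at 24 h. Of all genes there, 7.70% rose and 4.68% fell at 3 h, and 7.44% and 5.40% at 8 h. At 16 h 7.72% rose and 5.99% fell, and at 24 h 5.31% and 6.35%. A single call of 12 is again near such a share. Foxo1 rose there by 1.2 ± 0.21 at 3 h and 1.0 ± 0.21 at 8 h, and Ppargc1a rose at all 4 times, by 2.35, 1.81, 1.08 and 1.79. Ppargc1b rose there at 3 and 8 h (0.54 ± 0.16 and 0.55 ± 0.16), while Esrra fell at 3 h (-0.42 ± 0.13), Ppard at 8 h (-0.43 ± 0.11) and Nr3c1 at 24 h (-0.50 ± 0.12). The list's median in hepatocytes was 0.25, 0.18, 0.15 and -0.13 at the 4 times. These are levels of nuclear RNA, and the activity of the regulators was not measured.

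The genes whose pattern over the 32 hepatocyte libraries was most like that of Pdk4, by Pearson correlation of log CPM among 11557 genes, were Cyp4f17 (0.92), Insig2 (0.91), Rbpms (0.90), Plin2 (0.89) and Slc25a42 (0.89). Plin2 encodes a lipid droplet coat protein and Insig2 a protein that retains the SREBP complex in the endoplasmic reticulum. Within the 16 fed libraries alone these correlations were 0.72, 0.81, 0.49, 0.49 and 0.30, and within the 16 fasted ones 0.90, 0.84, 0.91, 0.93 and 0.90. In macrophage nuclei, among 12348 genes, the closest were Plin2 (0.91), Creg1 (0.88), Rad51d (0.88), Irs2 (0.86) and Gm4952 (0.86), and within fed libraries 0.85, 0.90, 0.89, 0.77 and 0.92. For the other genes in hepatocytes, the closest were Slc27a5 for Pdk1 (0.81) and Klc4 for Pdk2 (0.90). Within fasted and within fed libraries these were 0.88 and 0.73 for Slc27a5, and 0.92 and 0.83 for Klc4. In macrophage nuclei the closest were Klc4 for Pdk2 (0.85, with 0.95 within fasted and 0.61 within fed libraries) and Mtr for Pdk3 (0.82, with 0.82 and 0.79). Those for Pdk1 and Pdp2 were weaker. Lss reached 0.66 with Pdk1, but only 0.43 within fasted and 0.34 within fed libraries, and 38th place by Spearman correlation. L3hypdh reached 0.75 with Pdp2, with 0.82 within fasted and 0.59 within fed libraries, 0.54 without the 2 libraries farthest from the median, and 26th place by Spearman correlation. Pdk3 in hepatocytes and Pdp1 in both averaged under 1 CPM and were left out. The values describe these libraries, which share fasting state, time and depth between the genes compared.

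The authors' deposited table for hepatocytes lists Pdk1, Pdk2, Pdk4 and Pdp2, and their table for macrophages lists Pdk3 alone of the 6. These are restricted lists of 4745 and 3762 of the 20105 genes, so a gene missing from them is not thereby without a fasting effect. In the authors' deposited table, the log2 fold change of Pdk4, fasted over fed, was 2.77, 3.93, 1.26 and 1.79 at 3, 8, 16 and 24 h, with an adjusted p of 0.147 at 16 h. For Pdp2 at 24 h, the authors' deposited table gives -0.48 with an adjusted p of 0.0891, and for Pdk2 at 16 h -0.45 with an adjusted p of 0.0658, both on the other side of 0.05 from the values above. For Pdk3 in macrophages, the authors' deposited table gives 0.02, 0.44, 0.21 and 0.32, none under 0.05.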

How the data were processed

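Nuclear total RNA was sequenced as 50 bp paired-end reads from a stranded kit without poly-A selection, per the labels' protocols. Per the submitters' processing notes, STAR 2.4.2a, DESeq2 1.24.0 and mm10 were used. How reads were assigned to genes, and whether by strand, is not stated there. The values analysed are the authors' deposited raw counts per gene, 20105 genes in 80 libraries. The authors also deposited log2 fold changes and adjusted p-values, which were copied only where named. A further 64 columns of normalised per-library values were not used.

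The 6 genes and the gene lists were chosen with earlier results of these data known. Named are the 6 genes, list members called at 1 or more times, and the 5 genes most like Pdk4 and the 1 most like each other gene, of which 1 is not reported here. Counts were filtered with filterByExpr (minimum count 10, minimum total 15), scaled by TMM and fitted with the edgeR 4.0.16 quasi-likelihood test (robust) in R 4.3.3, with limma 3.58.1. All 32 tagged libraries of a cell type shared 1 fit, with a group per feeding state and time. Cell types were compared over all 64 tagged libraries, purified nuclei with the pools of their line, and pools with line and time as terms. P-values were adjusted by Benjamini-Hochberg over all genes tested, 12942 in hepatocytes, 13864 in macrophages, 14011 across both and 13562 in the pools, with a threshold of 0.05. Each SE is the log2 difference divided by the square root of F. CPM per kb used the listed length, which spans introns. Correlations used log CPM with a prior count of 2, among genes averaging at least 1 CPM. Alternatives were DESeq2 1.42.0, RLE size factors, no filter, the 8 libraries of a time alone, a replicate block and leaving out each library. No 2 libraries had identical counts. The steps were tested on simulated data.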

Additional observations from a re-analysis of the deposited data

Results flagged for a closer look

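Of 96 sets of 4 libraries, 8 had 1 library far from the others by Dixon's test, where chance gives about 1 in 20. For Pdk1 in fed nuclei at 3 h, 1 hepatocyte library had 16.6 CPM, against 13.0 to 13.5 in the others, and 1 macrophage library 10.4 CPM, against 8.74 to 8.96. Fed hepatocyte Pdk4 had 25.8 CPM in 1 library at 16 h, against 9.85 to 11.8 in the others, and 8.58 CPM in 1 at 24 h, against 3.07 to 3.61. Pdp1 in hepatocytes had 0.898 CPM in 1 fasted library at 8 h, against 0.338 to 0.399, and 0.0653 CPM in 1 fed library at 16 h, against 0.331 to 0.364. Fed macrophage Pdp1 had 0.595 CPM in 1 library at 16 h, against 0.845 to 0.891. Fasted macrophage Pdp2 had 10.6 CPM in 1 library at 3 h, against 7.48 to 7.95.

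The fasting effect differed between times in hepatocytes for Pdk2 (adjusted p = 0.000146), Pdk4 (adjusted p = 0.0171) and Pdp2 (adjusted p = 4.13e-06) in edgeR's test of the interaction. It differed between the cell types for Pdp2 at 3 h, by 1.18, and for Pdk4 at 8 h, by 2.64, hepatocytes minus macrophages.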

How the results depend on the processing

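Among the alternative values, 1563 kept their direction and side of the threshold, 69 no longer passed it, 13 newly passed it, 53 counts or levels moved and 40 changed sign. The sign changes came only from leaving out 1 library, in log2 differences that missed the threshold with and without it. In hepatocytes, Pdp1 then ran from -0.19 to 0.55 at 3 h, -0.15 to 0.53 at 8 h and -0.17 to 0.12 at 24 h, and Pdk2 from -0.16 to 0.05 at 24 h. In macrophages, Pdk3 ran from -0.13 to 0.21 and Pdp2 from -0.046 to 0.12 at 3 h, and Pdp1 from -0.24 to 0.18 at 8 h and -0.014 to 0.42 at 24 h. For the difference between cell types, Pdk1 ran from -0.091 to 0.26 at 3 h, Pdk3 from -0.26 to 0.22 and Pdp1 from -0.058 to 0.68 at 8 h, Pdk1 from -0.39 to 0.19, Pdk2 from -0.35 to 0.054 and Pdk4 from -1.90 to 0.006 at 16 h, and Pdk4 from -0.67 to 0.12 at 24 h. In the pools, Pdk3 ran from -0.14 to 0.052. With only the 8 libraries of a time, 0 of the 6 genes were called in hepatocytes at 16 h, where Pdk3 and Pdp1 did not pass the filter, 0 in macrophages at 8 h, 0 at 16 h (Pdk4 2.65, adjusted p = 0.0885) and 1 at 24 h (Pdk4 2.13, adjusted p = 0.00349). With no filter, the counts were 1 for time of day in fed hepatocytes (Pdk4 adjusted p = 0.0696), 1 in macrophages at 16 h and 0 for the difference between cell types at 8 h (Pdk4 2.64, adjusted p = 0.0509). DESeq2 called 2 in macrophages at 8 h, 1 at 24 h (Pdk4 2.12, adjusted p = 0.02) and 1 for the change with time. Replicate numbers were given without a stated pairing. Deviations of same-numbered libraries correlated with a median of 0.002 in hepatocytes (-0.408 to 0.396) and 0.031 in macrophages (-0.456 to 0.427). For libraries of different numbers the medians were -0.006 and -0.024. A correlation over all genes cannot exclude a batch or pairing that acts on some of them. With the number as a block, edgeR gave Pdk2 in macrophages an adjusted p of 0.052 at 3 h and 0.00595 at 8 h. With the replicate block, the counts were 1 for time of day in fed hepatocytes (Pdk4 adjusted p = 0.0545), 1 in macrophages at 16 h (without Pdk1, adjusted p = 0.0506) and 1 for the change with time in macrophages. Leaving out 1 library at a time, the counts ran from 1 to 4 in hepatocytes at 16 h, 1 to 3 at 24 h, 0 to 2 in macrophages at 8 h, 1 to 2 at 16 h, 0 to 2 for the difference at 8 h and 2 to 4 in the pools. Pdk4 then ran from 0.94 to 1.69 in hepatocytes at 16 h, 1.34 to 3.20 in macrophages at 16 h and 2.22 to 3.16 for the difference at 8 h. Of the 5 genes most like Pdk4 in hepatocytes, 2 stayed among the closest 5 by Spearman correlation, 2 within fasted and 0 within fed libraries, and in macrophages 2 within fasted and 0 within fed. The cause of these shifts was not tested. Counts over all genes moved by over 1.5 times as follows. In hepatocytes at 16 h, 2343 were called, against 885 with only the 8 libraries and 1485 without fasted library 3. In macrophages, 1716 were called at 3 h (247 with only 8 libraries, 702 to 2720 leaving out 1), 1781 at 8 h (702 to 1023 without fasted library 3 or fed library 1 or 2) and 1901 at 16 h (989 with only 8 libraries, 922 to 1187 without fasted library 1 or fed library 1 or 4). For the change with time in macrophages, 645 were called, against 1645 by DESeq2. For the difference between cell types, 1068 were called at 8 h (696 without macrophage fed library 1), 75 at 16 h (48 with no filter, 149 by DESeq2, 24 to 130 leaving out 1) and 567 at 24 h (246 to 900 leaving out 1). Depth limits Pdk3 and Pdp1 in hepatocytes, at 48 reads or fewer per library.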
